A study of Homo sapiens with 12 samples.

Results

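NF-kB is a family of transcription factors, and the 10 genes described here are its 5 subunit genes (NFKB1, NFKB2, REL, RELA and RELB) and 5 genes of its feedback control (NFKBIA, NFKBIE, TNFAIP3, BIRC3 and TRAF1). They were taken by exact gene name from a table of raw read counts, and the rule that names them uses no measured value. The members were still chosen with earlier results of these data known. All 10 were among the 59050 gene names of the table, and all 10 were among the 16208 genes that passed the filter on low counts. The counts come from bulk RNA sequencing of MyLa cells, a single established line of cutaneous T cell lymphoma, a lymphoma of T cells in the skin. Groups of 3 libraries each had 24 h of 3.2 nM romidepsin together with 5.7 uM afatinib dimaleate (the combination), of 3.2 nM romidepsin, of 5.7 uM afatinib dimaleate, or of DMSO. All 4 groups grew in medium with interleukin-2 at 20 ng/mL, and all held as much DMSO as the combination did. Romidepsin blocks histone deacetylases, which take acetyl groups off histones and other proteins, and afatinib blocks kinases of the epidermal growth factor receptor (ERBB) family. The series was built around synergy of both drugs, so the 4 groups were compared in all pairs, and the change with the combination was set against the sum of the changes with the single drugs.

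In resting cells, NF-kB dimers are held in the cytoplasm by inhibitors of the IkB family until kinases mark the inhibitor for degradation. In the canonical branch, dimers of RELA or REL with p50, the processed product of NFKB1, are set free from inhibitors such as IkB-alpha (NFKBIA) and IkB-epsilon (NFKBIE). In the noncanonical branch, the NFKB2 product p100 is processed to p52, which pairs with RELB. Several genes of the pathway are themselves targets of NF-kB, among them NFKBIA, TNFAIP3, BIRC3, TRAF1, NFKB2 and RELB, so their transcripts are often read as feedback, and constitutive NF-kB activity is a known trait of cutaneous T cell lymphoma lines.

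Total counts per library were between 8972228 and 12696653, and members had between 223 counts (RELB, romidepsin replicate 2) and 23983 counts (BIRC3, romidepsin replicate 3) in a library, so that no member was near the limit of detection. Levels are given as CPM, counts scaled to a common library size with normalization factors. The T cell identity of the line was checked with 12 markers, of which 7 passed the filter, among them CD2, CD3D, CD3G and TRAC, while CD3E, CD5, CD7 and CD4 had at most 5 counts in any library. The summed level of the 12 markers was 99.4 to 104 CPM in the combination, 148 to 159 CPM with romidepsin, 282 to 301 CPM with afatinib and 390.0 to 437 CPM in DMSO. Of the markers of other cell types, MS4A1 of B cells, KRT1 of keratinocytes and DCN of fibroblasts had 0 counts in all 12 libraries, while CSF1R of macrophages had 52 to 441 counts, KRT10 of keratinocytes 394 to 1015 and COL1A1 of fibroblasts 100 to 1547. The sum of 3 fibroblast markers was 8.79 to 9.38 CPM in the combination, 12.6 to 18.5 CPM with romidepsin, 54.0 to 55.2 CPM with afatinib and 109.1 to 136 CPM in DMSO. The sum of 4 monocyte and macrophage markers was 16.1 to 19.2 CPM in the combination, 29.3 to 36.6 CPM with romidepsin, 6.17 to 6.82 CPM with afatinib and 6.87 to 8.23 CPM in DMSO. That of 4 keratinocyte markers was 71.0 to 80.2 CPM in the combination, 43.2 to 46.6 CPM with romidepsin, 63.8 to 88.5 CPM with afatinib and 38.8 to 58.5 CPM in DMSO, and the sums of 4 B cell and 3 natural killer cell markers were at most 5.76 and 3.13 CPM in any library. KRT5, another keratinocyte gene, reached 43 counts in combination replicate 1, 126 with afatinib in replicate 3, and 59 and 94 in replicates 1 and 2 of DMSO, while the other 8 libraries had at most 1. Whether these differences bear on the members was not tested. The fibroblast sum was mainly COL1A1, with at most 19 counts of COL1A2 in any library and 0 of DCN. The monocyte and macrophage sum was mainly CSF1R, with at most 39 counts of CD14, 10 of CD68 and 2 of LYZ. The keratinocyte sum was mainly KRT10, with at most 126 counts of KRT5 and 39 of KRT14. Sums that mainly follow 1 gene cannot show a change in the share of a cell type. In bulk samples, fewer cells of a type and less RNA per cell cannot be told apart. Nothing in the labels says that the 3 libraries of a group are separate cultures, and p-values therefore cover no more than the spread among these libraries, which may be technical.

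**Figure D1:**
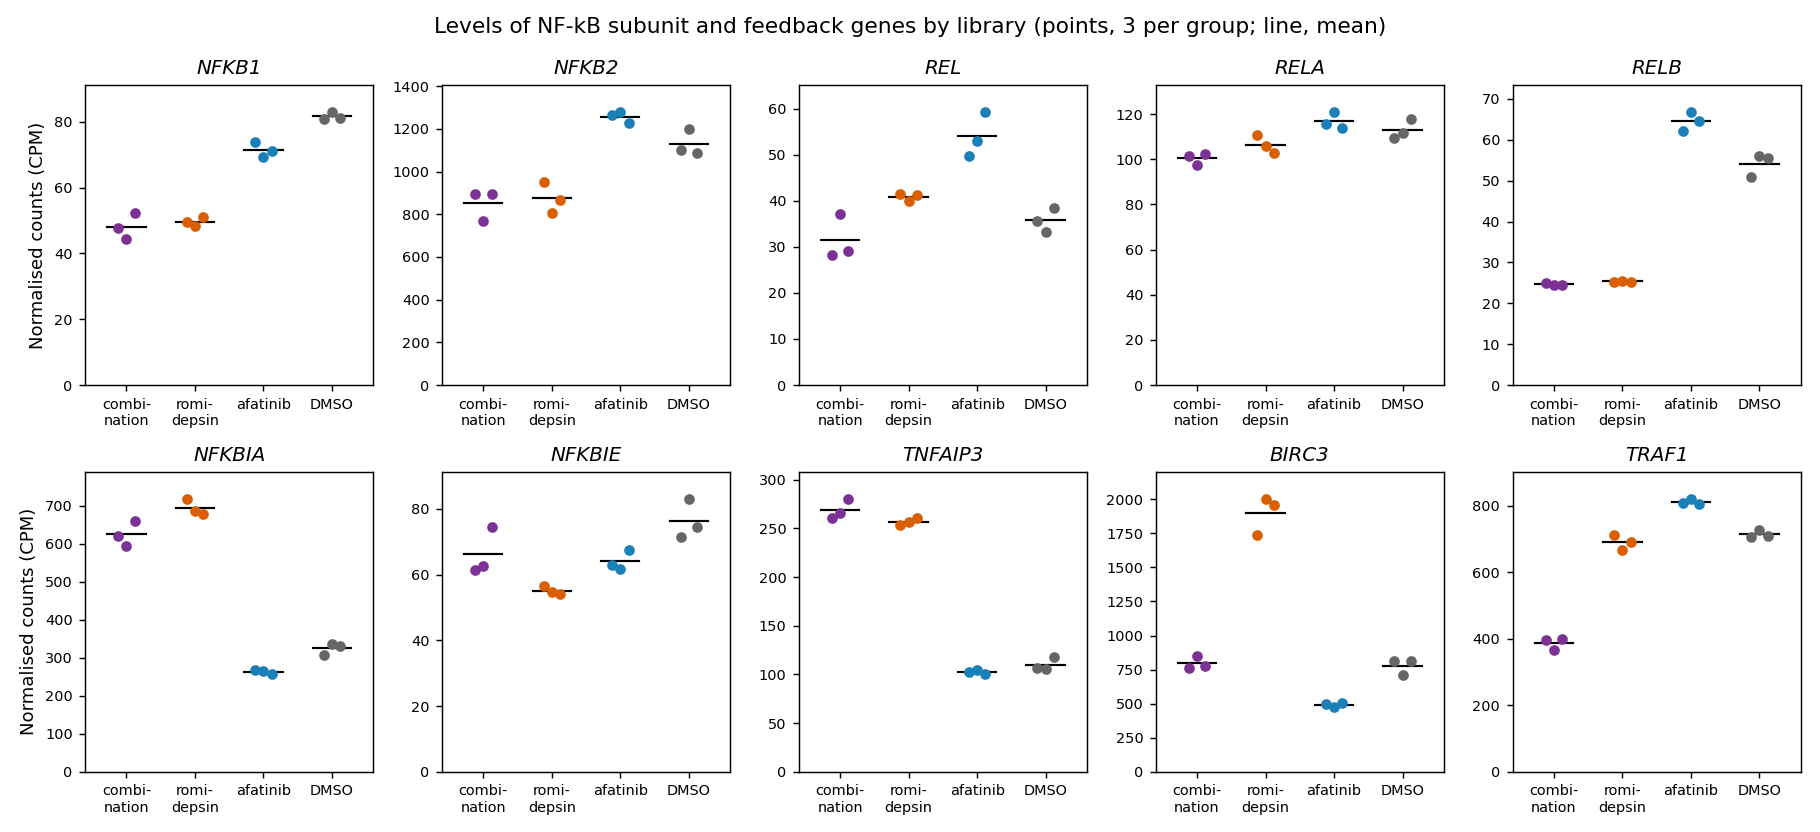
Normalised counts (CPM, vertical axis from 0, a scale for each gene) of the 10 genes in the combination, romidepsin, afatinib and DMSO groups, with a point for each of the 3 libraries and a line at the mean. RELB, NFKBIA and TNFAIP3 split the libraries by romidepsin, BIRC3 was high with romidepsin alone at 1739 to 2002 CPM, and TRAF1 was low in the combination alone at 366 to 399.9 CPM.

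Levels between genes were compared per kilobase of exon. In DMSO, NFKB2 was the highest of the members, at 239.6 ± 13.1 CPM per kilobase (mean ± SD, n = 3 libraries), followed by TRAF1 at 159 ± 2.33, NFKBIA at 137 ± 6.84 and BIRC3 at 104 ± 7.57. NFKBIE followed at 29.6 ± 2.34, then TNFAIP3 at 21.8 ± 1.34, RELA at 20.7 ± 0.784, RELB at 17.95 ± 0.925, NFKB1 at 12.8 ± 0.178 and REL at 2.72 ± 0.202. Only TNFAIP3 and RELA overlapped among neighbours in this order in DMSO. With afatinib the order kept the same first 5 genes, and RELB, at 20.6 to 22.1 CPM per kilobase, overlapped both RELA and TNFAIP3, which did not overlap each other. With romidepsin NFKBIA led at 293 ± 8.63, followed by BIRC3 at 253 ± 18.7 and NFKB2 at 185 ± 15.4, and no neighbours overlapped. In the combination the order was NFKBIA at 263 ± 13.9, NFKB2 at 181 ± 15.5, BIRC3 at 106 ± 6.49 and TRAF1 at 86.6 ± 4.28, and the only neighbours to overlap were RELB and NFKB1. REL was lowest of the members in every group, but it shares 43.3% of its exon bases with an annotated neighbour, AC010733.2, that had 0 counts, and reads in shared exons are not counted for either gene. Over its unshared exons REL stood at 4.23 ± 0.656 CPM per kilobase in the combination, 5.47 ± 0.116 with romidepsin, 7.23 ± 0.643 with afatinib and 4.80 ± 0.357 in DMSO, still below every other member. RELA and TNFAIP3 share 1.56% and 1.89% of their exon bases with a neighbouring transcript.

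**Figure D2:**
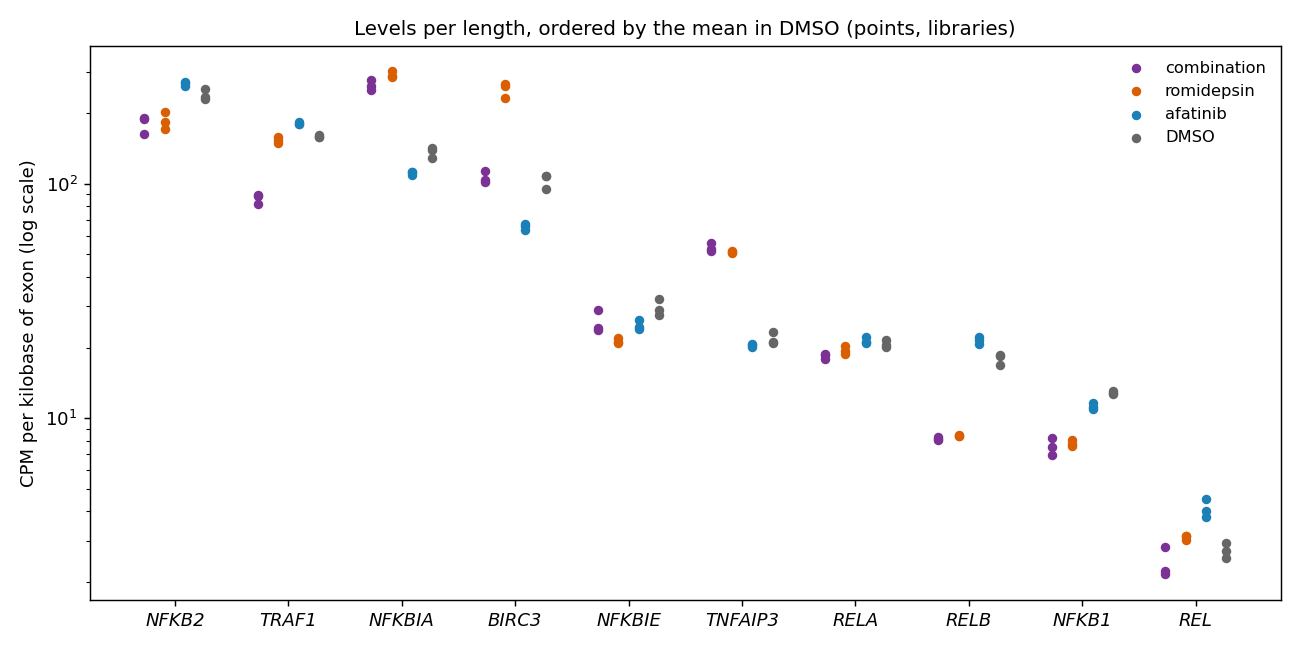
CPM per kilobase of exon (log scale) of the 10 genes, ordered by their mean in DMSO, with a point for each library of the combination, romidepsin, afatinib and DMSO groups. NFKB2, at 239.6 in DMSO, is far above the other subunit genes in all groups, and NFKBIA and BIRC3 are above it with romidepsin.

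NFKB2 made up most of the subunit transcripts in every group. Its share of the summed CPM per kilobase of the 5 subunit genes was 83.2% ± 1.00 in the combination, 82.7% ± 0.986 with romidepsin, 82.1% ± 0.325 with afatinib and 81.5% ± 0.912 in DMSO (mean ± SD, n = 3), so the groups differed by less than 2 percentage points. The share of RELB, the partner of p52, was 3.77% ± 0.257 in the combination and 3.76% ± 0.287 with romidepsin, against 6.59% ± 0.223 with afatinib and 6.11% ± 0.278 in DMSO. NFKB1 had 3.48% ± 0.158 in the combination, 3.49% ± 0.227 with romidepsin, 3.46% ± 0.144 with afatinib and 4.37% ± 0.136 in DMSO. The subunit sum itself was 217 ± 16.1 CPM per kilobase in the combination, 224 ± 15.97 with romidepsin, 325 ± 6.01 with afatinib and 294 ± 13.4 in DMSO.

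Romidepsin alone lowered 3 subunit genes and raised 3 feedback genes. RELB, NFKB1 and NFKB2 fell, as did the inhibitor gene NFKBIE, while BIRC3, TNFAIP3 and NFKBIA each rose more than 2-fold. REL, RELA and TRAF1 did not pass the test. With 3 of 10 members higher and 4 lower, the members stood close to the background of this comparison, in which 62.6% of all tested genes passed (31.1% higher and 31.5% lower), so these counts are not a result about the members. At least 2-fold changes were found in 4 members and in 24.2% of the tested genes. The median log2 change of the members was -0.07, beside 0.00 over all tested genes, and the median absolute change was 0.59 beside 0.55.

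The largest change of a subunit gene was that of RELB (chr19:45001449-45038198, GRCh38), which encodes the transactivating partner of p52. It had 25.3, 25.5 and 25.2 CPM with romidepsin, against 50.9, 56.0 and 55.5 CPM in DMSO. All 3 romidepsin libraries lay below all 3 DMSO libraries, with a log2 fold change of -1.09 ± 0.08 (SE, adjusted p = 5.75e-16 by edgeR). The share of all tested genes whose libraries also did not overlap was counted neither here nor in any comparison below. NFKB1 (chr4:102501331-102617302), the precursor of p50, had 49.5, 48.2 and 51.1 CPM with romidepsin, against 80.8, 82.9 and 81.1 CPM in DMSO. The groups did not overlap, and the log2 fold change was -0.72 (SE 0.07, edgeR adjusted p = 6.52e-12). NFKB2 (chr10:102394110-102402524), the precursor of p52, had 949.9, 805 and 868 CPM with romidepsin, against 1102, 1200.4 and 1086 CPM in DMSO. It too was lower in all 3 romidepsin libraries, by a smaller step (log2 fold change -0.37 ± 0.06 SE, adjusted p = 4.22e-07 by edgeR). RELA (chr11:65653597-65663090), the main transactivating subunit of the canonical branch, had 111, 106 and 103 CPM with romidepsin and 109.6, 112 and 118 CPM in DMSO. Its groups overlapped, and the 95% interval of its log2 fold change was -0.22 to 0.04. REL (chr2:60881521-60931610), a second transactivating subunit that is prominent in lymphocytes, had 41.5, 39.9 and 41.2 CPM with romidepsin and 35.7, 33.2 and 38.5 CPM in DMSO. The groups did not overlap, but the log2 fold change of 0.19 did not pass the threshold (edgeR adjusted p = 0.0780). It passed without combination replicate 2, without afatinib replicate 3 or without DMSO replicate 3 (edgeR adjusted p 0.0492, 0.0496 and 0.0414), and its adjusted p over all 20 alternatives ran between 0.0273 and 0.424.

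Among the feedback genes, BIRC3 (chr11:102317450-102339403), a ubiquitin ligase of the inhibitor of apoptosis family that acts at tumour necrosis factor receptors, had 1739, 2002 and 1956 CPM with romidepsin, against 811, 714 and 814 CPM in DMSO. All 3 romidepsin libraries were above all 3 DMSO libraries by 1.28 on the log2 scale (SE 0.06, edgeR adjusted p = 1.64e-24). TNFAIP3 (chr6:137867214-137883312), which encodes the ubiquitin-editing inhibitor A20, had 254, 256 and 261 CPM with romidepsin, against 106, 105 and 118 CPM in DMSO. The log2 fold change was 1.23 (SE 0.06, edgeR adjusted p = 1.24e-23), and the groups were far apart. NFKBIA (chr14:35401511-35404749) had 718, 686 and 679 CPM with romidepsin, against 307, 337 and 331 CPM in DMSO. This inhibitor gene rose by 1.096 on the log2 scale (SE 0.05, edgeR adjusted p = 3.35e-23). NFKBIE (chr6:44258166-44265788), the gene of IkB-epsilon, moved the other way, with 56.6, 54.7 and 54.2 CPM with romidepsin against 71.3, 83.0 and 74.5 CPM in DMSO. Its log2 fold change was -0.47 (SE 0.08, edgeR adjusted p = 1.05e-06), so the 2 IkB genes among the members changed in opposite directions. TRAF1 (chr9:120902393-120929173), an adaptor that binds BIRC3 and TRAF2, had 711, 666 and 690.4 CPM with romidepsin and 707, 726 and 708 CPM in DMSO. Its groups overlapped, and the 95% interval of its log2 fold change was -0.15 to 0.05.

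**Figure D3:**
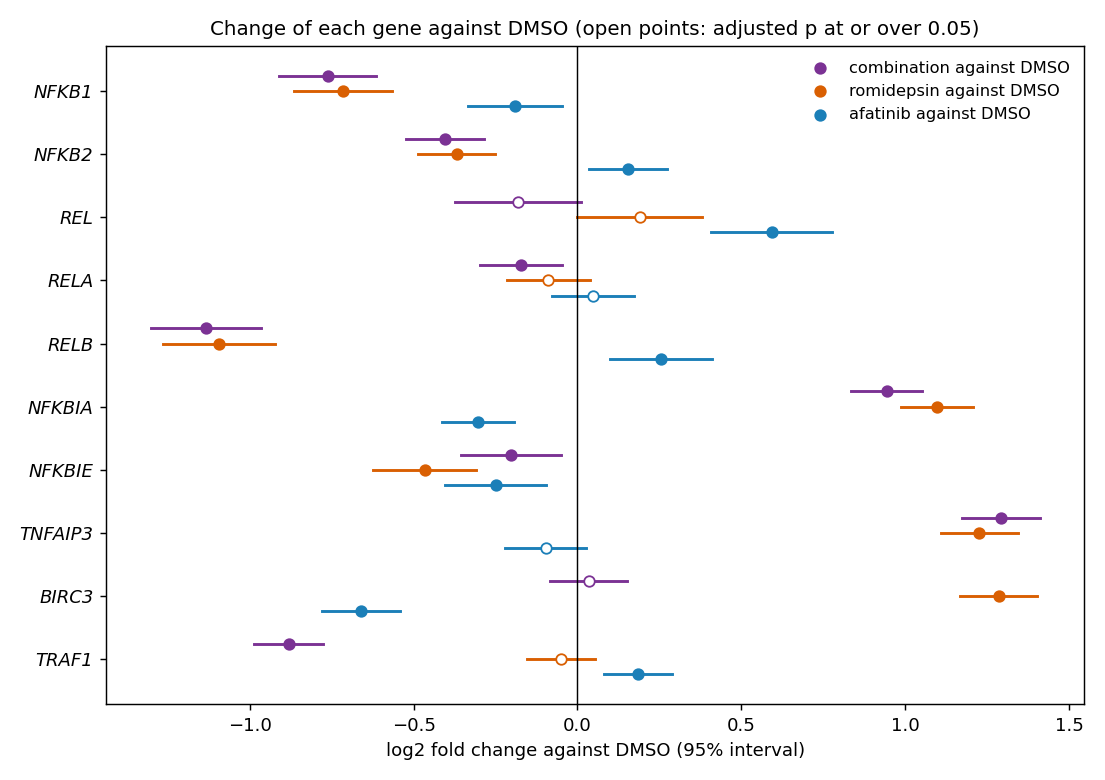
Log2 fold change of each gene against DMSO in the combination, with romidepsin and with afatinib (points, edgeR) with 95% intervals (bars), where open points did not reach an adjusted p under 0.05. The combination and romidepsin points lie close together for NFKB1, NFKB2, RELB, NFKBIA and TNFAIP3 and far apart for BIRC3 (0.03 and 1.28) and TRAF1 (-0.88 and -0.05).

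The promoter sequences of members that moved apart under romidepsin are shown because NF-kB binds a known 10-base element, the kB consensus. RefSeq windows of 300 bases around an annotated gene start (GRCh38.p14) matched 8 of the 10 members, with 14 windows in all. RELB and NFKBIE had no entry. A kB match, searched on both strands, was found in 7 of the 14 windows and in 6 members (NFKB1, NFKB2, REL, NFKBIA, TNFAIP3 and BIRC3), and in 5.91% of the 35116 windows of all genes. The TATA element TATAAA was found in 11.5% of all windows. In the stretches below, written 5′ to 3′ on the strand of the gene and ending at or before the RefSeq start, capitals mark kB matches. They are NFKBIA (chr14:35404750-35404999, minus strand), TNFAIP3 (chr6:137867009-137867217, plus strand) and BIRC3 (chr11:102317234-102317479, plus strand), which rose with romidepsin, and a downstream start of NFKB2 (chr10:102395455-102395704, plus strand), which fell.
NFKBIA: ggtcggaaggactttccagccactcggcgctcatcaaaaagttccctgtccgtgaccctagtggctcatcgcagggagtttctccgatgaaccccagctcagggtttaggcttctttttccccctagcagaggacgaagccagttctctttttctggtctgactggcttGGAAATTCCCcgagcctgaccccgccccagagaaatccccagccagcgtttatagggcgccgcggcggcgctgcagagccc
TNFAIP3: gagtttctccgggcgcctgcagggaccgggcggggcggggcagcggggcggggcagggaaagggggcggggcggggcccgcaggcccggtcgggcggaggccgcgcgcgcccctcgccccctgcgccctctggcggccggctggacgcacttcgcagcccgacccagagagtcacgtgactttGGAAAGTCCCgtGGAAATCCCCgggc
BIRC3: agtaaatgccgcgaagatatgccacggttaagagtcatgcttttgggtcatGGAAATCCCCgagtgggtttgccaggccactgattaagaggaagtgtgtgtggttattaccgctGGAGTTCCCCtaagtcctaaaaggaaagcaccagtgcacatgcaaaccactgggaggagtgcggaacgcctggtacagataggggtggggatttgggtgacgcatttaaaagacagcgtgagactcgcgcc
NFKB2: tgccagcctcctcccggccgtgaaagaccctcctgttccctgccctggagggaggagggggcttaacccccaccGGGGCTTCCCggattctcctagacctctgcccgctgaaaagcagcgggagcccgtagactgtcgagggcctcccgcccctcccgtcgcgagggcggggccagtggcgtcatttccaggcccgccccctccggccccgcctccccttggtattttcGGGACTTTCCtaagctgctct

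Counted from the annotated start, the NFKBIA match lay at -81 to -72, with a TATAAA match on the other strand at -33 to -28. The TNFAIP3 matches lay next to each other at -67 to -58 and -55 to -46, and those of BIRC3 at -199 to -190 and -135 to -126. NFKB2 had matches at -176 to -167 and -21 to -12 in the window shown. Another NFKB2 window, not shown, had matches at -107 to -98, -106 to -97 and -78 to -69, and its most upstream window had none. NFKB1, which fell with romidepsin, had a match at -49 to -40, and REL, which did not pass the test, had 2 overlapping matches between -47 and -37. Matches therefore stood in windows of members that rose, of members that fell and of a member that was not called, and they describe letters in a window, not binding. No match was found in the windows of RELA and TRAF1.

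Afatinib alone changed no member by 2-fold. REL rose and BIRC3 and NFKBIA fell, and smaller changes were called higher for RELB, TRAF1 and NFKB2 and lower for NFKBIE and NFKB1. RELA and TNFAIP3 did not pass. With 4 members higher and 4 lower, 8 of 10 were called, against 45.4% of all tested genes (22.0% higher and 23.3% lower). Without DMSO replicate 2, 2 members were lower. No member changed at least 2-fold, and 8.90% of the tested genes did. The median absolute log2 change of the members was 0.22, below the 0.34 over all tested genes.

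REL had 49.8, 52.9 and 59.3 CPM with afatinib, against 35.7, 33.2 and 38.5 CPM in DMSO. The lowest afatinib library was above the highest DMSO library, and REL had the largest increase of a member here, with a log2 fold change of 0.59 ± 0.09 (SE, adjusted p = 5.33e-07 by edgeR). BIRC3 had 497, 478 and 505 CPM with afatinib, against 811, 714 and 814 CPM in DMSO. It was lower in all 3 afatinib libraries (log2 fold change -0.66 ± 0.06 SE, adjusted p = 2.63e-13 by edgeR). NFKBIA had 267, 265 and 258 CPM with afatinib, against 307, 337 and 331 CPM in DMSO, which gave a log2 fold change of -0.30 ± 0.05 (SE, adjusted p = 8.84e-06 by edgeR). Both feedback genes thus moved opposite to their direction with romidepsin. RELB had 62.2, 66.7 and 64.6 CPM with afatinib, against 50.9, 56.0 and 55.5 CPM in DMSO (log2 fold change 0.25 ± 0.08 SE, adjusted p = 0.00578 by edgeR). TRAF1 had 808, 820.1 and 804 CPM with afatinib, against 707, 726 and 708 CPM in DMSO (log2 fold change 0.18 ± 0.05 SE, adjusted p = 0.00284 by edgeR). In both genes the groups did not overlap. Leaving out the 4 libraries with KRT5 reads left DMSO replicate 3 as the only DMSO library. RELB was not called there, at a log2 fold change that was again 0.25. The TRAF1 call was lost with no filter beyond 1 count (edgeR adjusted p = 0.0513, range over 20 alternatives 1.28e-05 to 0.0513).

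The other 3 calls with afatinib were lost when single libraries were left out. NFKB1 had 74.0, 69.3 and 71.2 CPM with afatinib, against 80.8, 82.9 and 81.1 CPM in DMSO (log2 fold change -0.19 ± 0.07 SE, adjusted p = 0.0263 by edgeR). The call was lost under 7 of 20 alternatives, where the lowest adjusted p over the 20 was 0.0199. Among the 7 were leaving out any afatinib library, DMSO replicate 1 or DMSO replicate 2 (0.0599 to 0.103). Scaling by library size alone also lost it (log2 fold change -0.09, edgeR adjusted p = 0.318). NFKB2 had 1266, 1278 and 1227 CPM with afatinib, against 1102, 1200.4 and 1086 CPM in DMSO (log2 fold change 0.15 ± 0.06 SE, adjusted p = 0.0285 by edgeR). That call was lost under 6 of 20 alternatives, with adjusted p over the 20 between 0.000419 and 0.137, among them leaving out afatinib replicate 1 or 2 or DMSO replicate 1 or 3 (0.0650 to 0.104). NFKBIE had 62.9, 61.7 and 67.4 CPM with afatinib, against 71.3, 83.0 and 74.5 CPM in DMSO (log2 fold change -0.25 ± 0.08 SE, adjusted p = 0.00656 by edgeR). It lost the call under 3 of 20 alternatives, where the lowest adjusted p over the 20 was 0.00314. Among the 3 were leaving out DMSO replicate 2 (0.0667) and scaling by library size alone (log2 fold change -0.15, edgeR adjusted p = 0.109). TNFAIP3 had 103, 104 and 101 CPM with afatinib and 106, 105 and 118 CPM in DMSO. Its groups did not overlap, but it missed the threshold, with a 95% interval of the log2 fold change of -0.22 to 0.03. RELA had 116, 121 and 114 CPM with afatinib, with an interval against DMSO of -0.08 to 0.17.

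With the combination, NFKB1, NFKB2, RELB, TNFAIP3 and NFKBIA stood near their romidepsin levels, while BIRC3 stood near its DMSO level and TRAF1 fell below all other groups. RELB, TRAF1, NFKB1 and NFKB2 fell, TNFAIP3 and NFKBIA rose, small decreases were called for RELA and NFKBIE, and REL and BIRC3 did not pass. Of the 10 members 2 were higher and 6 lower than in DMSO, against 74.3% of all tested genes called (37.2% higher and 37.1% lower). At least 2-fold changes were found in 2 members and in 39.5% of the tested genes, and the median absolute log2 change of the members was 0.58, beside 0.79 over all tested genes. The comparisons of the combination, romidepsin and afatinib with DMSO use the same 3 DMSO libraries. Scaling by library size alone raised the median log2 change of all tested genes by 0.10 in this comparison and by 0.10 with afatinib against DMSO.

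RELB had 25.1, 24.4 and 24.5 CPM in the combination, against 50.9, 56.0 and 55.5 CPM in DMSO. The log2 fold change was -1.13 (SE 0.08, edgeR adjusted p = 5.11e-17), and the spread within the combination was under 1 CPM. TRAF1 had 397, 366 and 399.9 CPM in the combination, against 707, 726 and 708 CPM in DMSO. It was lower in all 3 combination libraries (log2 fold change -0.88 ± 0.05 SE, adjusted p = 1.57e-20 by edgeR), while it was not called lower with either drug alone. NFKB1 had 47.7, 44.4 and 52.3 CPM in the combination, against 80.8, 82.9 and 81.1 CPM in DMSO (log2 fold change -0.76 ± 0.07 SE, adjusted p = 4.14e-13 by edgeR). NFKB2 had 896, 769 and 894 CPM in the combination, against 1102, 1200.4 and 1086 CPM in DMSO (log2 fold change -0.40 ± 0.06 SE, adjusted p = 3.86e-08 by edgeR). Both precursor genes were below DMSO in all 3 libraries.

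TNFAIP3 had 260.5, 266 and 280.3 CPM in the combination, against 106, 105 and 118 CPM in DMSO, and it had the largest increase of a member (log2 fold change 1.29 ± 0.06 SE, adjusted p = 5.49e-25 by edgeR). NFKBIA had 620.1, 594 and 659.5 CPM in the combination, against 307, 337 and 331 CPM in DMSO (log2 fold change 0.94 ± 0.05 SE, adjusted p = 4.41e-21 by edgeR). In both negative regulators the lowest combination library was above the highest DMSO library. BIRC3 had 761, 853 and 779 CPM in the combination and 811, 714 and 814 CPM in DMSO. The groups overlapped, and the log2 fold change of 0.03 (95% interval -0.08 to 0.15) did not pass, but it turned to -0.02 without combination replicate 2 and to -0.04 without DMSO replicate 2, and it passed at 0.14 when libraries were scaled by size alone (edgeR adjusted p = 0.0316, range over 20 alternatives 0.0316 to 0.913). REL had 28.3, 37.2 and 29.2 CPM in the combination and 35.7, 33.2 and 38.5 CPM in DMSO, with a log2 fold change of -0.18 (edgeR adjusted p = 0.0839). Combination replicate 2 stood above the other 2 libraries of its group, and without it REL was lower than in DMSO (log2 fold change -0.32, edgeR adjusted p = 0.00359), as it was without DMSO replicate 2 (-0.24, adjusted p = 0.0342), while its adjusted p over 20 alternatives ran between 0.00359 and 0.474.

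The decreases of RELA and NFKBIE with the combination were small. RELA had 101, 97.5 and 102 CPM in the combination, against 109.6, 112 and 118 CPM in DMSO (log2 fold change -0.17 ± 0.06 SE, adjusted p = 0.0123 by edgeR). The call was lost under 7 of 20 alternatives, with adjusted p over the 20 between 0.00825 and 0.332, among them leaving out afatinib replicate 1 or 3 or DMSO replicate 1 (0.0728 to 0.0882). NFKBIE had 61.4, 62.6 and 74.3 CPM in the combination, against 71.3, 83.0 and 74.5 CPM in DMSO (log2 fold change -0.20 ± 0.08 SE, adjusted p = 0.0155 by edgeR). Its groups overlapped, and the call was lost under 9 of 20 alternatives, where the lowest adjusted p over the 20 was 0.00118. Among the 9 were leaving out combination replicate 1 or 2, afatinib replicate 1 or 3 or DMSO replicate 2 (0.0686 to 0.101).

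Against romidepsin alone, the combination differed mainly in BIRC3, TRAF1 and REL. With 1 member higher and 4 lower, 5 of 10 passed, against 54.3% of all tested genes (25.1% higher and 29.2% lower), and at least 2-fold changes were found in 1 member and in 12.8% of the tested genes. BIRC3 had 761, 853 and 779 CPM in the combination, against 1739, 2002 and 1956 CPM with romidepsin (log2 fold change -1.25 ± 0.06 SE, adjusted p = 2.31e-23 by edgeR). TRAF1 had 397, 366 and 399.9 CPM in the combination, against 711, 666 and 690.4 CPM with romidepsin (log2 fold change -0.83 ± 0.05 SE, adjusted p = 1.26e-18 by edgeR). Both genes, whose products bind each other at tumour necrosis factor receptors, were lower in all 3 combination libraries. REL was also lower in all 3, at 28.3, 37.2 and 29.2 CPM in the combination against 41.5, 39.9 and 41.2 CPM with romidepsin (log2 fold change -0.37 ± 0.09 SE, adjusted p = 0.000902 by edgeR). NFKBIE was higher, at 66.1 ± 7.14 CPM in the combination against 55.1 ± 1.30 CPM with romidepsin (log2 fold change 0.26, edgeR adjusted p = 0.00394), but not without combination replicate 3 (0.16, adjusted p = 0.1003, the highest over 20 alternatives, with the lowest at 0.000165). NFKBIA was lower, at 624 ± 33.1 CPM in the combination against 694 ± 20.5 CPM with romidepsin (log2 fold change -0.15, edgeR adjusted p = 0.0126), a call lost under 8 of 20 alternatives with adjusted p between 0.00399 and 0.317. Leaving out combination replicate 2, afatinib replicate 1 or afatinib replicate 3 was enough to lose it (0.0631 to 0.0671). NFKB1, NFKB2, RELA, RELB and TNFAIP3 did not pass, with 95% intervals of the log2 fold change of -0.20 to 0.11, -0.15 to 0.08, -0.21 to 0.04, -0.22 to 0.14 and -0.05 to 0.18. RELA and RELB did not overlap between these groups, but only narrowly. The highest combination library had 102.3 CPM of RELA and 25.06 of RELB, and the lowest romidepsin library 102.5 and 25.20. The share of tested genes without such overlap was not counted. The sign of NFKB1, NFKB2, RELA and RELB turned when libraries were scaled by size alone.

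Against afatinib alone, TNFAIP3, NFKBIA and BIRC3 were higher and RELB, TRAF1, REL, NFKB1, NFKB2 and RELA were lower in the combination. With 3 members higher and 6 lower, 9 of 10 were called in the combination against afatinib, beside 69.2% of all tested genes (33.4% higher and 35.8% lower). Also 3 higher and 6 lower were called for romidepsin against afatinib, beside 64.6% (32.2% higher and 32.4% lower). At least 2-fold changes were found in 4 members in each, beside 32.1% and 26.0% of the tested genes. TNFAIP3 differed from afatinib by 1.39 on the log2 scale in the combination and by 1.32 with romidepsin, NFKBIA by 1.25 and 1.40, and RELB by -1.39 and -1.35. BIRC3 differed by 0.69 in the combination and by 1.94 with romidepsin, which was the largest fold (3.85) between groups for a member in these 6 pairwise comparisons. TRAF1 differed by -1.06 in the combination and by -0.23 with romidepsin, and REL by -0.77 and -0.40. NFKB1 and NFKB2 differed by -0.57 and -0.56 in the combination and by -0.53 and -0.52 with romidepsin. All of these passed (edgeR, largest adjusted p = 0.000138), and the libraries of the groups did not overlap. How many tested genes also had no overlap was not counted, so this is not a result about the members. RELA was called in the combination (-0.22, edgeR adjusted p = 0.00177) and missed with romidepsin (-0.14, edgeR adjusted p = 0.0528), where it passed without romidepsin replicate 1 or DMSO replicate 3 (0.0415 and 0.0498, range over 20 alternatives 0.00202 to 0.215). NFKBIE was called with romidepsin (-0.22, edgeR adjusted p = 0.0152) but not without romidepsin replicate 3 or afatinib replicate 3 (0.0602 and 0.112, range over 20 alternatives 0.000904 to 0.112), and in the combination its interval was -0.11 to 0.20.

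The interaction term tested whether the combination departed from the sum of both single-drug changes on the log2 scale. It was called for 4 members, of which TRAF1, REL and BIRC3 were lower than the sum and NFKBIE was higher. The background of this test was 30.2% of all tested genes (11.7% higher and 18.5% lower), and a departure of at least 2-fold was found in 1 member and in 6.07% of the tested genes. For TRAF1 the single-drug changes summed to 0.13, while the combination changed it by -0.88, a departure of -1.01 (SE 0.07, edgeR adjusted p = 1.32e-15). For REL the sum was 0.78 and the combination change was -0.18, a departure of -0.96 (SE 0.13, edgeR adjusted p = 9.49e-08). REL was thus raised by afatinib against DMSO, and its level in the combination was lower than with either drug alone. For BIRC3 the sum was 0.62 and the combination change was 0.03, a departure of -0.59 (SE 0.08, edgeR adjusted p = 1.28e-07). For NFKBIE the sum was -0.72 and the combination change was -0.20, a departure of 0.51 (SE 0.11, edgeR adjusted p = 0.000236).

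The other 6 members did not pass the interaction test. Their 95% intervals were -0.07 to 0.35 for NFKB1, -0.31 to 0.05 for RELA, -0.0031 to 0.30 for NFKBIA and -0.0034 to 0.33 for TNFAIP3. NFKBIA and TNFAIP3 passed with DESeq2 (departures 0.19 and 0.20, Wald test adjusted p = 0.0496 and 0.0469). Over 19 alternatives the adjusted p reached 0.367 for NFKBIA and 0.398 for TNFAIP3. RELB (departure -0.29, edgeR adjusted p = 0.0551) and NFKB2 (departure -0.19, edgeR adjusted p = 0.0793) were nearest to the threshold. RELB passed without DMSO replicate 2 or 3 (0.0456 and 0.0467, range over 19 alternatives 0.0456 to 0.257). NFKB2 passed without combination replicate 3, romidepsin replicate 2 or DMSO replicate 2 (0.0441, 0.0191 and 0.0234, range over 19 alternatives 0.0191 to 0.299). Without DMSO replicate 2, 5 members were therefore lower than the sum.

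**Figure D4:**
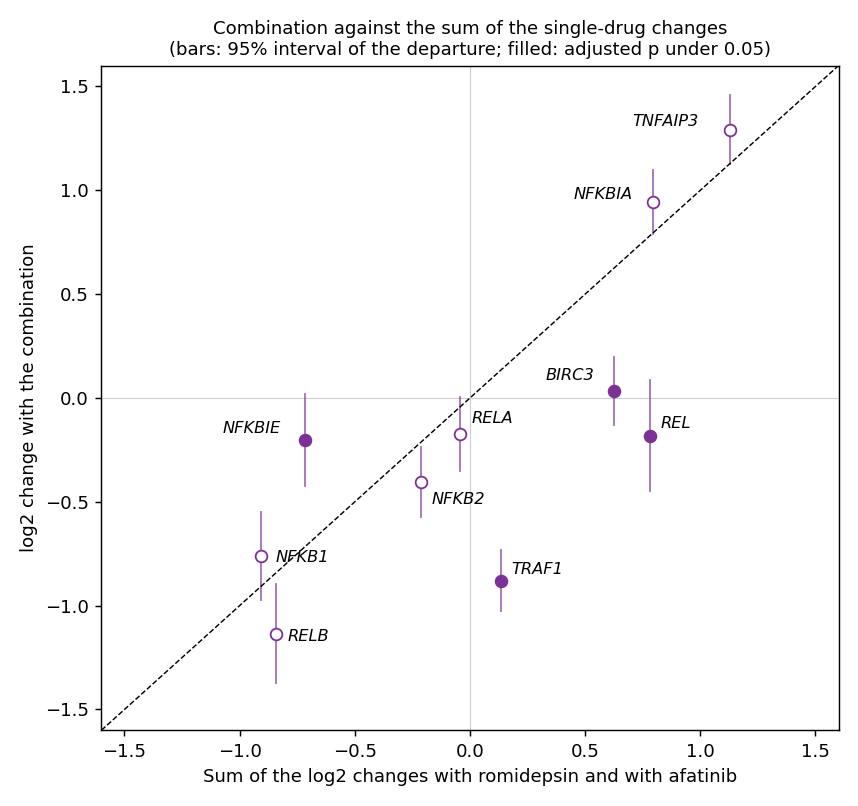
Log2 change of each gene with the combination (vertical axis) against the sum of its log2 changes with romidepsin and with afatinib (horizontal axis), with the dashed line where both are equal. Bars are 95% intervals of the departure, and filled points (TRAF1, REL, BIRC3 and NFKBIE) had an adjusted p under 0.05 for it, with TRAF1 lying 1.01 below the line (departure -1.01).

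Ratios of 2 members within a library do not depend on the scaling between libraries. The ratio of NFKBIA to RELA, an inhibitor to a subunit it holds, was 14.3 ± 0.456 in the combination and 15.04 ± 0.182 with romidepsin, against 5.19 ± 0.123 with afatinib and 6.61 ± 0.285 in DMSO (CPM per kilobase, mean ± SD, n = 3). The ratio of TNFAIP3 to RELB was 6.55 ± 0.311 in the combination and 6.09 ± 0.104 with romidepsin, against 0.956 ± 0.0325 with afatinib and 1.22 ± 0.0779 in DMSO. These ratios set the romidepsin-treated groups apart from the other groups with no overlap between libraries. RELB stood at 0.445 ± 0.00957 of RELA in the combination and 0.432 ± 0.0164 with romidepsin, against 1.00 ± 0.0267 with afatinib and 0.867 ± 0.0354 in DMSO. The ratio of BIRC3 to TRAF1 was 1.23 ± 0.139 in the combination and 1.64 ± 0.171 with romidepsin, against 0.362 ± 0.0141 with afatinib and 0.651 ± 0.0565 in DMSO. BIRC3 was thus above TRAF1 per length in both romidepsin-treated groups and below it in the other groups, and no groups overlapped in this ratio.

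Other genes of the pathway were followed in 4 lists. Of 28 kinases and adaptors upstream of NF-kB, 25 were tested. In the combination 10 were higher and 9 lower than in DMSO, with romidepsin 9 and 11, and with afatinib 6 and 4, with median log2 changes of -0.07, 0.00 and 0.06. The counts of all 4 lists stand beside 74.3% of all tested genes called in the combination (37.2% higher and 37.1% lower), 62.6% with romidepsin (31.1% and 31.5%) and 45.4% with afatinib (22.0% and 23.3%). With library size as the only scaling the 6 increases with afatinib became 10. The fit without the 4 libraries with KRT5 reads had DMSO replicate 3 as its only DMSO library, so its calls are not counted for the lists. IRAK1, a kinase of interleukin-1 and Toll-like receptor signalling, stood at 71.9 ± 4.54 CPM in the combination and 74.1 ± 2.68 CPM with romidepsin, against 325 ± 10.1 CPM in DMSO (log2 fold changes -2.17 and -2.13, edgeR adjusted p = 1.44e-33 and 1.21e-32). RIPK1, a kinase and scaffold at the tumour necrosis factor receptor, rose to 149 ± 6.79 CPM in the combination and 203 ± 10.7 CPM with romidepsin, against 46.6 ± 2.44 CPM in DMSO. With afatinib the largest changes were increases of TRAF3, a restraint on the noncanonical kinase NIK, of RBCK1 and of TRAF6. TRAF3 stood at 243 ± 2.94 CPM with afatinib against 161 ± 4.68 CPM in DMSO. It fell with romidepsin (log2 fold change -0.91) and in the combination (-0.69). RBCK1, a subunit of the linear ubiquitin ligase, rose with afatinib (0.56) and in the combination (0.46) and was not called with romidepsin (-0.13). The ubiquitin ligase TRAF6 rose with afatinib (0.38), with romidepsin (0.50) and in the combination (0.53).

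Of 20 receptors that signal to NF-kB, 12 were tested. In the combination 7 were higher and 5 lower than in DMSO, with romidepsin 8 and 3, and with afatinib 5 and 5, beside 74.3%, 62.6% and 45.4% of all tested genes called, with medians of 0.27, 0.48 and -0.10. Calls without the 4 libraries with KRT5 reads are not counted here. TNFRSF9, the costimulatory receptor 4-1BB, was at 98.6 ± 8.43 CPM in the combination, 29.4 ± 2.45 CPM with romidepsin and 63.5 ± 3.84 CPM with afatinib, against 12.9 ± 1.52 CPM in DMSO, so both drugs stood above DMSO and the combination above both. TNFRSF25, the death receptor DR3, was at 30.7 ± 1.77 CPM in the combination, 44.4 ± 4.30 CPM with romidepsin and 120.4 ± 6.19 CPM with afatinib, against 177 ± 5.89 CPM in DMSO. TNFRSF8, the receptor CD30, fell with romidepsin (log2 fold change -1.26, edgeR adjusted p = 6.54e-24) and in the combination (-2.14). TNFRSF1A, the main tumour necrosis factor receptor, fell with romidepsin (-1.51) and in the combination (-1.37) and rose with afatinib (0.82). TNFRSF12A, the TWEAK receptor, rose in the combination (2.23) and with romidepsin (1.08). IL18R1 rose with afatinib (0.94), in the combination (0.63) and with romidepsin (0.57).

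Of 20 other IkB proteins and negative regulators, 18 were tested. In the combination 7 were higher and 8 lower than in DMSO, with romidepsin 7 and 6, and with afatinib 1 and 7, beside 74.3%, 62.6% and 45.4% of all tested genes called, with medians of -0.09, -0.08 and -0.14. With library size as the only scaling, 3 were higher and 3 lower with afatinib. The 7 decreases with afatinib became 3 without afatinib replicate 3 and 4 without DMSO replicate 1, and the 1 increase became 2 without DMSO replicate 1. NFKBIZ, a nuclear member of the IkB family that is itself induced by NF-kB, stood at 1505 CPM in the combination (1490.2 to 1518 in the 3 libraries) and 1088 ± 61.1 CPM with romidepsin, against 275 ± 7.07 CPM with afatinib and 296 ± 31.02 CPM in DMSO. Its log2 fold changes against DMSO were 2.35 in the combination and 1.88 with romidepsin (edgeR adjusted p = 4.40e-35 and 6.92e-31). PDLIM2, a ligase that acts on nuclear RELA, was at 2.54 ± 0.562 CPM in the combination and 3.54 ± 0.742 CPM with romidepsin, against 24.2 ± 1.98 CPM in DMSO (log2 fold changes -3.23 and -2.75). TNIP1, which binds A20, fell in the combination (-1.52) and with romidepsin (-0.90). NFKBID fell with romidepsin (-1.30) and was not called in the combination (-0.09). With afatinib the largest changes were decreases of NKRF (-0.86), of BCL3, a nuclear IkB protein (-0.72), and of NFKBIB, the gene of IkB-beta (-0.53).

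Of 40 other reported NF-kB target genes, 35 were tested. In the combination 13 were higher and 18 lower than in DMSO, with romidepsin 17 and 13, and with afatinib 8 and 16, beside 74.3%, 62.6% and 45.4% of all tested genes called, with medians of -0.28, 0.18 and -0.22 beside medians of all tested genes within 0.01 of 0. The targets thus moved in both directions in each treated group. CCL22, a chemokine gene, was at 1.92 ± 0.419 CPM in the combination, 1.65 ± 0.513 CPM with romidepsin and 2.95 ± 0.704 CPM with afatinib, against 46.8 ± 4.17 CPM in DMSO. PTGS2, the gene of cyclooxygenase-2, was at 420.3 ± 19.8 CPM in the combination and 647 ± 29.8 CPM with romidepsin, against 47.7 ± 3.08 CPM with afatinib and 43.5 ± 1.65 CPM in DMSO. LTA, the lymphotoxin-alpha gene, was at 12.2 ± 1.64 CPM in the combination, 84.1 ± 4.89 CPM with romidepsin and 31.8 ± 3.86 CPM with afatinib, against 105 ± 3.92 CPM in DMSO. LTB, the lymphotoxin-beta gene, was at 3.10 ± 0.505 CPM in the combination, 16.2 ± 2.63 CPM with romidepsin and 12.98 ± 1.65 CPM with afatinib, against 43.5 ± 6.04 CPM in DMSO. GADD45B, a stress response gene, rose in the combination (log2 fold change 3.51, edgeR adjusted p = 1.60e-30) and with romidepsin (2.38). CD69, a marker of T cell activation, rose with romidepsin (2.68, edgeR adjusted p = 1.51e-15) and in the combination (2.53).

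**Figure D5:**
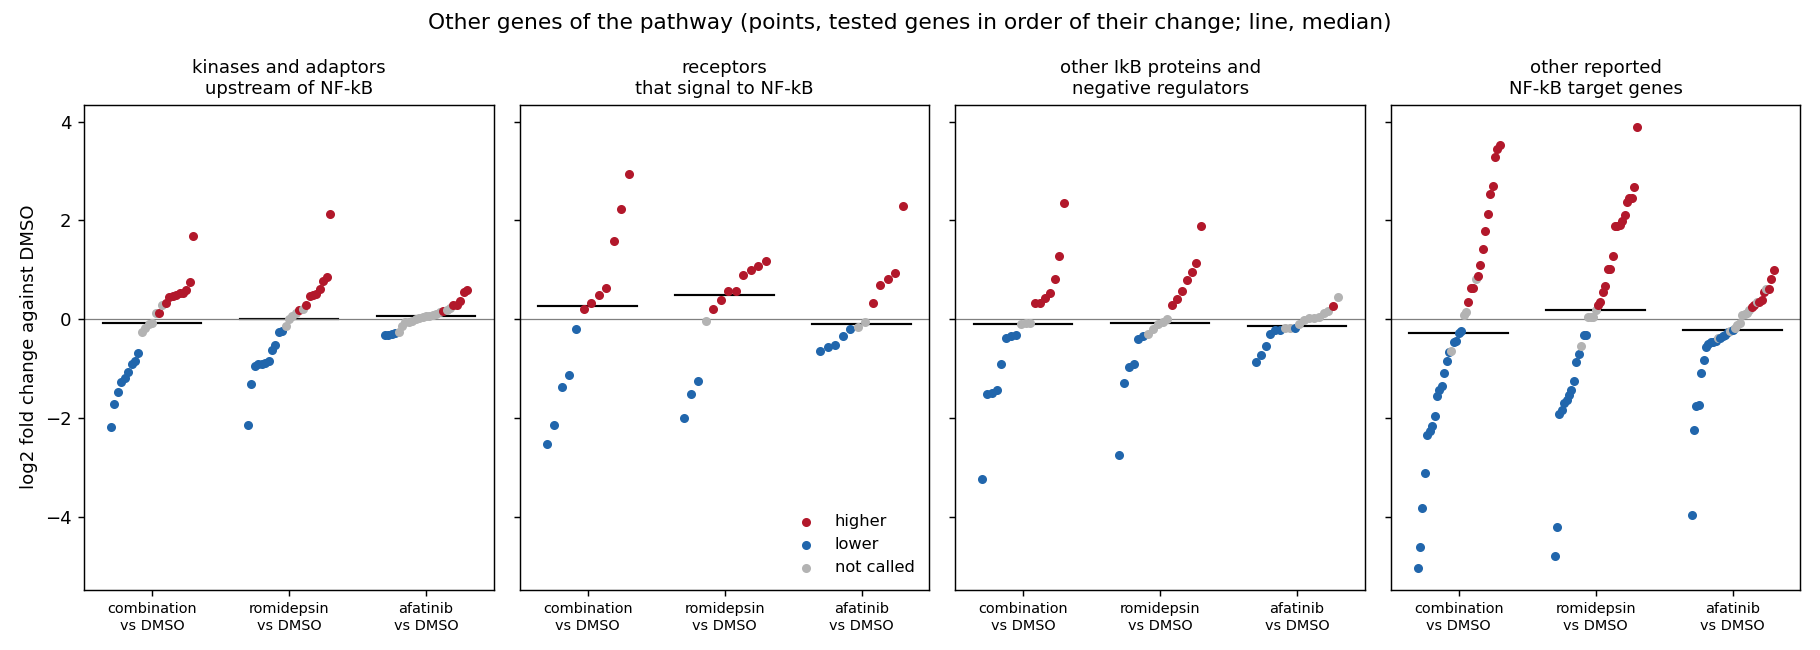
Log2 fold change against DMSO of each tested gene of the 4 lists in the combination, with romidepsin and with afatinib, in order of size within a group (points) with the median (line). Red and blue points passed an adjusted p under 0.05 and grey points did not, and each list holds genes in both directions, with the medians between -0.28 and 0.48.

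As a description over the 12 libraries, which fall into 4 groups, the genes whose log2 CPM followed each member most closely were found among 10182 tested genes. TNFAIP3 was followed most closely by IL15 and STAT3 (Pearson r 0.998 and 0.997), RELB by PLEKHG1 and S1PR1 (both 0.997), and NFKBIA by PNRC1 and ALAS1 (0.997 and 0.996). TRAF1 was followed by ZNF282 (0.995), BIRC3 by PRDM1 (0.991), NFKB1 by IGKC (0.989) and NFKB2 by ATP11A (0.987). REL, RELA and NFKBIE had looser nearest neighbours, which were TGOLN2 (0.963), SEMA4A (0.959) and SLC2A1 (0.915).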

How the data were processed

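Bulk RNA sequencing of 12 MyLa libraries in 4 groups was deposited as 1 table of raw counts per gene. Per the submitters' processing notes, which list tools without their role, these include STAR 2.7.9a, featureCounts 2.0.0 and DESeq2 1.38.1 with the GRCh38.p12 build, and per the file headers the counts were made by featureCounts with the GENCODE 31 annotation, without a strand option, leaving out reads that map to several places or to several genes. The other deposited table carries normalized counts in its name, but its values did not follow the counts, and it was not used.

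Here the 59050 genes were filtered by expression (16208 kept) and tested with edgeR 4.0.16 (R 4.3.3, TMM factors, robust quasi-likelihood test, all 12 libraries in 1 fit, Benjamini-Hochberg adjustment over all tested genes, threshold 0.05). The biological coefficient of variation was 6.13%. A floor of 3 counts was 0.236 to 0.334 CPM, and intervals cover the fitted spread at 95%. Members and lists were chosen with earlier results of these data known. In each list, the 3 genes with the largest called change and a mean of at least 5 CPM were named per comparison with DMSO, except 1 that is not reported here, and the nearest genes to a member were the 3 with the highest correlation of log2 CPM. Alternatives were other scaling, other filters, DESeq2 1.42.0, fits of the compared groups only, a replicate block, and leaving out single libraries or the 4 with keratin reads. The last setting left DMSO replicate 3 as the only DMSO library. The scripts were tested on simulated data.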

Additional observations from a re-analysis of the deposited data

Results flagged for a closer look

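In 4 members the change with afatinib differed between cells with and without romidepsin by the interaction test, which called 30.2% of all tested genes. The departure of the combination from what both drugs added up to, on the log2 scale, was -1.01 for TRAF1 (edgeR adjusted p = 1.32e-15), -0.96 for REL (edgeR adjusted p = 9.49e-08), -0.59 for BIRC3 (edgeR adjusted p = 1.28e-07) and 0.51 for NFKBIE (edgeR adjusted p = 0.000236). All 4 held under the 19 alternatives run for this test, with departures of -1.06 to -0.97 for TRAF1, -1.11 to -0.73 for REL, -0.66 to -0.49 for BIRC3 and 0.41 to 0.57 for NFKBIE.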

How the results depend on the processing

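Of 1390 values of members under alternatives, 1309 kept their direction and side of the threshold, 46 lost the call, 22 gained it and 13 changed sign, and none of those 13 was called. With the replicate block, 70 of 70 values kept their call, and romidepsin against DMSO again had 3 members higher and 4 lower. Over all tested genes, 18 correlations of the deviations of libraries with equal replicate numbers ran between -0.0899 and 0.0894. They cannot exclude that such libraries shared a culture or a day, which the labels do not say. The 4 increases with afatinib became 2 with no filter beyond 1 count. The 4 decreases became 2 with library size as the only scaling, and 2 to 4 without 1 library. The 1 increase in the combination against romidepsin became 2 with library size alone, and 0 to 1 without 1 library. The interaction had 3 members above the sum with DESeq2 (NFKBIE, NFKBIA and TNFAIP3), and 3 to 5 below it without 1 library.

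Changes of sign, in log2 units, were found with library size alone for TNFAIP3 with afatinib (0.0027) and, in the combination against romidepsin, for NFKB1 (0.042), NFKB2 (0.053), RELA (0.0056) and RELB (0.049). TRAF1 with romidepsin was at 0.0072 without the keratin libraries, and NFKB2 in the combination against romidepsin at 0.0012 in a fit of those groups alone. Without 1 library, BIRC3 in the combination ran between -0.037 and 0.12, NFKB1 between -0.12 and 0.0047 and NFKB2 between -0.10 and 0.028 against romidepsin, and NFKBIE between -0.048 and 0.12 against afatinib. The cause was not tested. The part of depth was not tested; the lowest count of a member in a library was 223.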
